A study of Mus musculus with 4 samples.

Results

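Cholesterol is built from acetyl-CoA through mevalonate, isoprenoid diphosphates, squalene and lanosterol, and the genes of this route are switched on together by the transcription factor SREBP2. When sterols are scarce in the endoplasmic reticulum, the escort protein Scap carries SREBP2 to the Golgi, where it is cut and released to the nucleus. When sterols are plentiful, the Insig proteins hold Scap back and transcription of the pathway falls. Hepatocytes are known for high sterol synthesis, and dividing blood cell precursors also make sterols for new membrane.

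Described here are 26 genes of cholesterol synthesis and of SREBP2 regulation, chosen by name from a pathway list and not by their values, out of 32285 genes counted in each library. They comprise 6 genes from acetyl-CoA to isopentenyl units, 4 of prenyl diphosphate and squalene synthesis, 9 from lanosterol to cholesterol, 4 of sterol sensing, and 3 others, a sterol carrier and a pair of fatty acid desaturases. All 26 have at least 1 UMI (unique molecular identifier, the tag that marks 1 captured RNA molecule) in each of the 4 libraries.

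Single cells from dissociated livers of male offspring were profiled by 3′ droplet sequencing. There was 1 library for each of 4 groups, namely fetuses at E18.5 and adults at 8 weeks of age. At each age 1 library came from offspring of control dams (Ctrl) and 1 from offspring exposed to intrauterine hyperglycemia (IHG). Each library was a pool, of material from 3 pregnant mice or from 3 adults per the labels, so animals cannot be separated, and the strain and the way hyperglycemia was induced are not given in the sources used here. A red cell lysis step was applied, and adult livers were perfused through the portal vein. With 1 library per group there is no replicate and no test. Every interval below is an exact 95% interval for counting error alone, and a difference between 2 libraries cannot be told apart from a difference between 2 dissociations or captures.

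The libraries held 5245 to 8739 barcodes and from 17987173 to 105382968 UMIs, with a median of 2235 to 9116 UMIs per barcode, the adult libraries being the shallower. Between 8 and 26 barcodes were shared by any 2 libraries. Haemoglobin genes took 35.4% of UMIs in the fetal Ctrl library and 20.4% in the fetal IHG library. The 95th percentile of the mitochondrial share of UMIs was 23.8% in the fetal Ctrl library and 6.43% in the fetal IHG library. In the cells kept after filtering, mitochondrial UMIs were 1.83% and 2.31% of the total. Beyond an alternative with a 10% mitochondrial maximum, the part of this difference in the fetal ratios was not tested. Clusters were called "X-like" from marker lists. The fetal hepatocyte-like cluster was led by Ahsg, Alb, Apoa1, Ttr and Afp, all hepatocyte genes, and 10 hepatocyte markers were detected in it. It held 107 Ctrl and 108 IHG cells. No adult cluster could be named hepatocyte-like or erythroid-like, so both classes are described in the fetus only. The adult epithelial cells were a cholangiocyte-like cluster (bile duct cells, led by Ankrd1, Krt8, Krt18, Cldn7 and Spp1) of 89 Ctrl and 37 IHG cells. Levels below are given in CPM, a gene's UMIs scaled to a total of 1e6 UMIs of the class in that library. Each log2 ratio sets IHG against Ctrl after 0.5 was added to both counts. A gene counts as measured in a class with at least 20 UMIs over the 2 libraries compared.

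Letters from before the RefSeq starts are shown first for genes that part ways in the fetal blood cells described below. Hmgcs1, Srebf2, Msmo1, Insig1 and Cyp51 were lower in the IHG library in B-like and neutrophil-like cells, and Ebp was not. Hmgcs1 makes HMG-CoA, Srebf2 encodes SREBP2, Msmo1 and Cyp51 remove methyl groups from sterol intermediates, Insig1 is a brake on SREBP2 that SREBP2 itself induces, and Ebp shifts a double bond in the sterol ring. All 6 are protein-coding genes, at chr13:119690379-119708260 (Hmgcs1, plus strand), chr15:82147181-82205379 (Srebf2, plus), chr8:64718139-64733792 (Msmo1, minus), chr5:28071363-28078662 (Insig1, plus), chr5:4081145-4104746 (Cyp51, minus) and chrX:8185329-8193512 (Ebp, minus) in GENCODE M21 on mm10. The sequences are RefSeq promoter windows on GRCm38.p6, written 5′ to 3′ on the strand of the gene. Those of Hmgcs1, Srebf2, Insig1, Cyp51 and Ebp end before the first exon annotated by GENCODE. For Msmo1 only a site of 30 bases is given, which lies before the RefSeq start but inside the gene as GENCODE annotates it. They lie at chr13:119690101-119690350 (Hmgcs1), chr15:82147019-82147180 (Srebf2), chr8:64733739-64733768 (Msmo1), chr5:28071162-28071362 (Insig1), chr5:4104747-4104947 (Cyp51) and chrX:8193513-8193762 (Ebp). Capitals mark TCACNCCA, the core of the sterol regulatory element bound by SREBP2, and CCAAT, the box bound by NF-Y, a usual partner of SREBP2, each on either strand.
Hmgcs1: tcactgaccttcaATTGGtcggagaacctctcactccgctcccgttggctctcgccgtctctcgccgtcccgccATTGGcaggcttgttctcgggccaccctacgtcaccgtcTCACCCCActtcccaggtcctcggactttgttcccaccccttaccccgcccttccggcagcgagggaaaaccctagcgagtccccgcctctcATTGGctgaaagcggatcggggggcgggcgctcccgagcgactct
Srebf2: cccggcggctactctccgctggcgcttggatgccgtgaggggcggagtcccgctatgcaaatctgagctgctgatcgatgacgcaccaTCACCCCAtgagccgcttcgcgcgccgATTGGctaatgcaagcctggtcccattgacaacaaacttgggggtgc
Msmo1: ggtctcactattcTCACTCCAtccgcgcag
Insig1: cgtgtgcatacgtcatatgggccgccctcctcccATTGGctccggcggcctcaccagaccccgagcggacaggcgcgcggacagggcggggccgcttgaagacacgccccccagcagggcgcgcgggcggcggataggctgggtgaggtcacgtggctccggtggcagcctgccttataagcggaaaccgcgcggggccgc
Cyp51: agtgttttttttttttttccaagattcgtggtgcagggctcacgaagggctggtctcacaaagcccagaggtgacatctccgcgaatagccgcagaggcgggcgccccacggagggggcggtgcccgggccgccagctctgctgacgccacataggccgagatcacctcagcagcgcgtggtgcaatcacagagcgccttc
Ebp: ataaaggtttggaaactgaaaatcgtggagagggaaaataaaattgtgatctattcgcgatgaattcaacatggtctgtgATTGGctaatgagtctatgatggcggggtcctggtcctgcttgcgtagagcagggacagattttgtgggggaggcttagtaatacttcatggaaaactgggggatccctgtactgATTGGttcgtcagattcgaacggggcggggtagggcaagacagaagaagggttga
Windows of 250 bases before the start were at hand for 21 of the 26 genes, 27 windows in all. A gene was counted if any of its windows held the motif, whereas the shares over all windows are per window. TCACNCCA was found on either strand in 3 of these 21 genes, Hmgcs1, Srebf2 and Msmo1, and in 3.67% of all 32851 promoter windows of that length. It starts 137 bases before the RefSeq start in Hmgcs1, 162 before it in Srebf2 and 177 before it in Msmo1. The longer form TCACNCCAC, which contains the shorter one, was found in 1 of the 21, Hmgcs1, and in 1.05% of all windows. CCAAT was found in 18 of the 21 genes and in 33.8% of all windows, and the GC box GGGCGG in 19 of the 21 and in 32.7%. The motifs were chosen with the values below known, and a match is a description of letters only. Forms of the sterol regulatory element that differ from TCACNCCA were not searched for.

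Among fetal classes, the hepatocyte-like cells held by far the most RNA of these genes. Their 26 genes summed to 1947 CPM (interval 1853 to 2044) in Ctrl and 2028 CPM (1948 to 2111) in IHG. Small groups of dendritic-like cells had 969 and 524 CPM, mast cell or basophil-like cells 734 and 504, and NK-like cells 355 and 462, and 55 megakaryocyte-like IHG cells had 848. Monocyte-like cells had 510 and 420 CPM, B-like cells 455 and 373, and stromal cells (endothelial-like and stellate/fibroblast-like cells together) 367 and 371. Neutrophil-like cells had 234 and 167 CPM, and erythroid-like cells 221 and 255. Among named adult classes, cholangiocyte-like cells led with 2597 CPM (2504 to 2692) in Ctrl and 1898 (1764 to 2040) in IHG. By Ctrl level, 26 and 20 plasmacytoid dendritic-like cells (1362 and 1020) and other dendritic-like cells (561 and 652) came next. Stromal cells (525 and 412, here with mesothelial-like cells), plasma-like cells (499 and 494) and neutrophil-like cells (415 and 230) followed. Below these were T-like cells (375 and 298), B-like cells (355 and 302), monocyte-like cells (281 and 339) and NK-like cells (228 and 210). An unnamed adult cluster with hepatocyte and bile duct markers, described last, stood below the cholangiocyte-like cells and above the plasmacytoid ones. Neutrophil-like cells stood above erythroid-like cells in fetal Ctrl and below them in fetal IHG. Haemoglobin is part of the total behind each CPM value. In fetal erythroid-like cells it took 580926 CPM in Ctrl and 558684 in IHG, and in neutrophil-like cells 32329 and 10088. It took 242931 and 6562 CPM in fetal NK-like cells, and 142532 and 15284 in hepatocyte-like cells. Its part in these levels and their order was not tested.

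**Figure D1:**
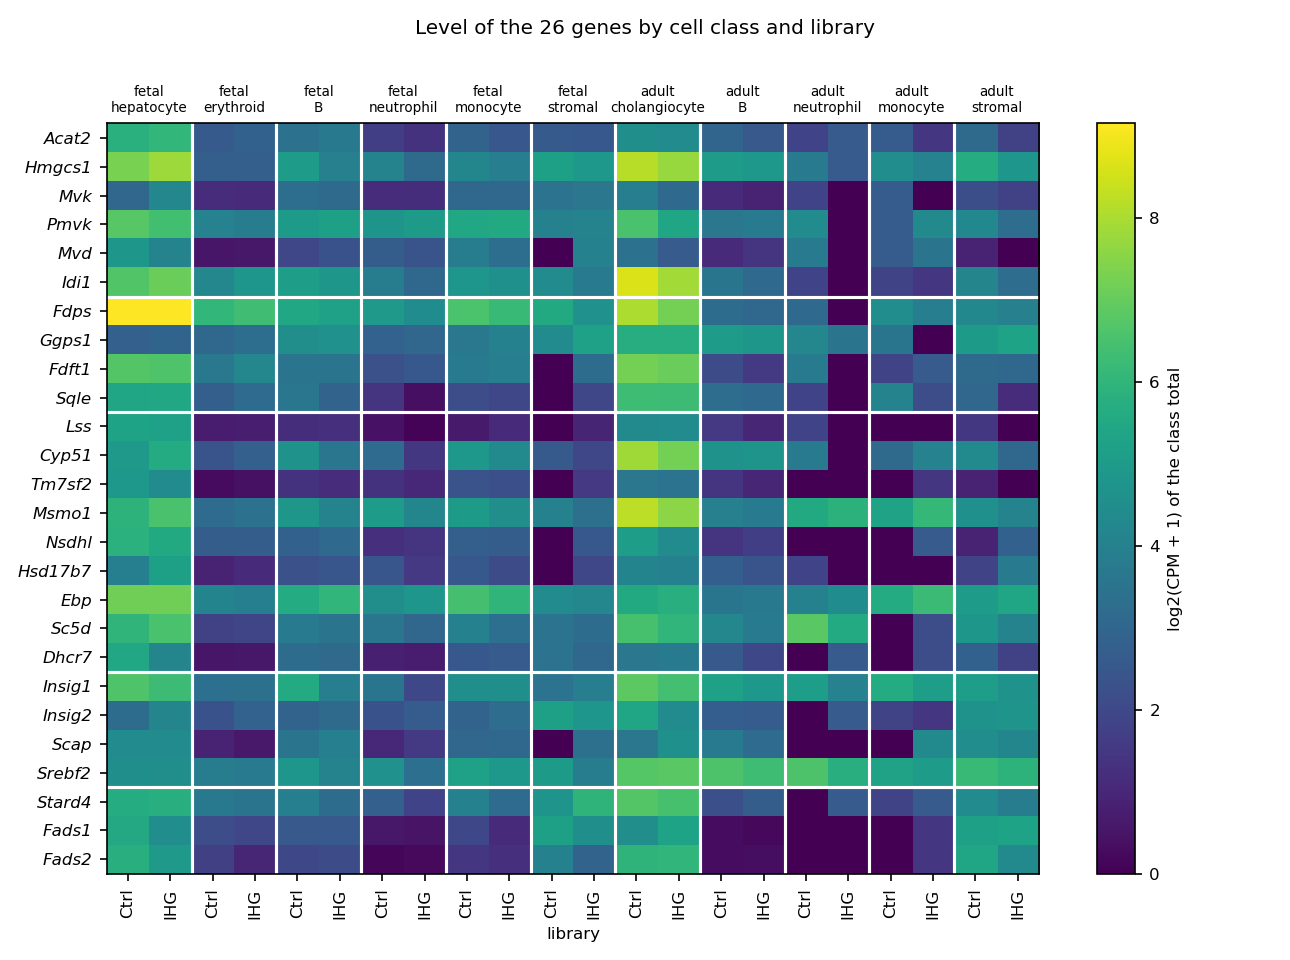
Level of each of the 26 genes (rows, in pathway order, white lines between roles) in 11 combinations of age and cell class, each with its Ctrl and IHG library (columns). Colour is log2 of CPM of the class total plus 1, and the brightest columns are fetal hepatocyte-like and adult cholangiocyte-like cells.

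In fetal B-like cells the pathway split. Of the 26 genes, all measured, 7 were at least 1.5-fold lower in IHG and none at least 1.5-fold higher, while 8.01% and 16.4% of all 11255 measured genes were past those marks. The median log2 ratio over the 26 was -0.04, with 13 higher, against 0.19 over all measured genes. The 7 lower genes came from all 5 groups of the list. They included regulators (Srebf2, Insig1), an early enzyme (Hmgcs1), the squalene epoxidase Sqle, the methyl sterol enzymes Cyp51 and Msmo1, and the sterol carrier Stard4.

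Insig1 gave 627 UMIs among 2402 B-like cells in Ctrl and 102 among 1022 cells in IHG, that is 47.7 CPM against 13.9 CPM, a log2 ratio of -1.77 (-2.09 to -1.47). Srebf2 gave 359 and 117 UMIs, 27.3 CPM against 15.97 CPM, a log2 ratio of -0.77 (-1.09 to -0.47). The other members of the sensing machinery did not share this direction. Scap had 137 and 107 UMIs with a log2 ratio of 0.49 (0.11 to 0.86), and Insig2, the paralogue of Insig1 that is less dependent on SREBP2, had 87 and 59 UMIs with 0.29 (-0.22 to 0.78).

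Among the enzymes before squalene, Hmgcs1 stood alone past 1.5-fold, at 425 UMIs in Ctrl and 109 in IHG (32.4 CPM against 14.9 CPM, log2 ratio -1.12, interval -1.44 to -0.81). The mevalonate kinases Mvk and Pmvk had log2 ratios of -0.15 and 0.20, the decarboxylase Mvd 0.46 and the thiolase Acat2 0.29, and all 4 intervals included 0. Idi1, which isomerises isopentenyl diphosphate, had a smaller difference of -0.30 (-0.55 to -0.05), and Fdps, which makes farnesyl diphosphate, -0.22 (-0.43 to -0.01), but Fdps was at 0.06 when cells were thinned to 1000 UMIs each. At the branch point to other isoprenoids, the geranylgeranyl diphosphate synthase Ggps1 was at 0.13 and the squalene synthase Fdft1 at 0.00, both with intervals across 0.

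Past squalene, Sqle gave 145 UMIs in Ctrl and 48 in IHG, a log2 ratio of -0.74 (-1.26 to -0.27). Cyp51 gave 332 and 81 UMIs, 25.3 CPM against 11.1 CPM, with -1.19 (-1.56 to -0.84). Msmo1 gave 365 and 119 UMIs, 27.8 CPM against 16.2 CPM, with -0.77 (-1.09 to -0.47). The other enzymes of the same segment were not lower in this way. Ebp had 644 and 468 UMIs, 49.0 CPM against 63.9 CPM, with a log2 ratio of 0.38 (0.21 to 0.56). Lss, Tm7sf2, Nsdhl, Hsd17b7, Sc5d and Dhcr7 lay between -0.28 and 0.30 with intervals across 0. Stard4 gave 189 and 61 UMIs, with -0.78 (-1.23 to -0.37), and the desaturases Fads1 and Fads2 were at 0.02 and 0.15, intervals across 0. With cells thinned to 1000 UMIs each, Srebf2 was at -1.69 and Sqle at -1.86, on the same side and larger.

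No single cell carried these counts. The cell with the most Insig1 held 0.797% of the class's Insig1 UMIs in Ctrl and 3.92% in IHG, and for Hmgcs1, Cyp51 and Srebf2 the largest share of 1 cell was 5.13%. The direction was the same in 4 B-like clusters, whose Ctrl and IHG cells were compared cluster by cluster. These clusters come from the same pair of libraries and are not replicates. Clusters 2, 5, 9 and 15 had Insig1 log2 ratios of -2.18, -2.00, -2.17 and -1.56. Their Hmgcs1 ratios were -1.51, -1.59, -0.90 and -1.32, their Cyp51 ratios -1.81, -1.54, -1.14 and -1.26, and their Srebf2 ratios -0.67, -1.05, -2.17 and -0.50. Ebp was at 0.39, 0.39, 0.36 and 0.22 in the same clusters. The highest level of the 26 genes was in cluster 5, led by the surrogate light chain genes Vpreb1, Igll1 and Vpreb2, which mark B cell precursors. It had 799.5 CPM in Ctrl (758 to 843) and 524 CPM in IHG (494 to 556). Values of the whole B-like class also depend on the share of each cluster in a library, and the part of this was not tested.

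Other RNA moved beside these genes in B-like cells. All 8 measured immediate-early genes, which report acute cell activation or handling, were at least 1.5-fold lower in IHG (median log2 ratio -1.77, summed level 1491 CPM in Ctrl and 602 CPM in IHG). Haemoglobin RNA was 7.30% of UMIs in Ctrl and 1.62% in IHG, and all 8 genes of a list of hepatocyte RNA were higher in IHG (summed 100.3 CPM and 232.6 CPM). The part of these in the result was not tested. Without haemoglobin-rich cells, defined as cells with over 10% haemoglobin UMIs, the log2 ratios were -1.85 for Insig1, -1.27 for Hmgcs1, -1.32 for Cyp51 and -0.90 for Srebf2. Proliferation genes differed little, at 2569 and 2460 CPM.

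**Figure D2:**
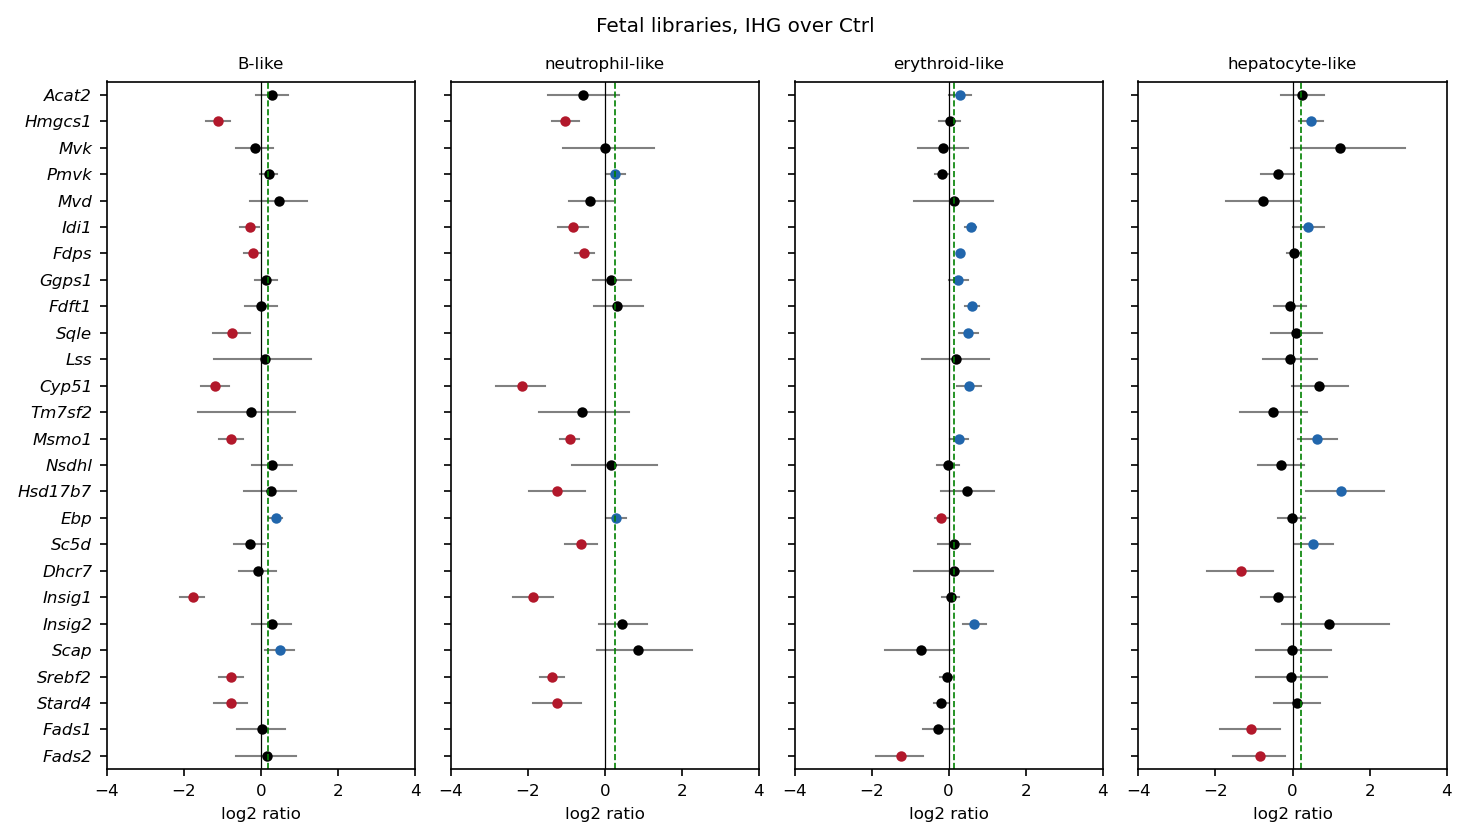
Log2 ratio of IHG over Ctrl for each measured gene (rows) in 4 fetal classes, with exact 95% counting intervals as bars. Red points have intervals below 0 and blue points above 0, the dashed line marks the all-gene median, and Insig1, Hmgcs1, Cyp51, Srebf2, Stard4 and Msmo1 are red in both B-like and neutrophil-like cells and in neither of the other classes.

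Fetal neutrophil-like cells, 975 in Ctrl and 2067 in IHG, had lower levels of much the same set. Of 21 measured genes, 10 were at least 1.5-fold lower in IHG (6.97% of all 9617 measured genes were) and 1 at least 1.5-fold higher (19.2%), with a median of -0.58 against 0.25 over all measured genes. Of the 7 genes lower by that mark in B-like cells, 6 were among these 10, and the last, Sqle, was under the count minimum with 13 and 5 UMIs. Lss, Dhcr7, Fads1 and Fads2 were under it too.

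Cyp51 gave 65 UMIs in Ctrl and 32 in IHG, 8.21 CPM against 1.82 CPM, a log2 ratio of -2.16 (-2.83 to -1.54), and -1.48 when doublets were kept. Insig1 gave 85 and 52 UMIs, 10.7 CPM against 2.96 CPM, with -1.85 (-2.39 to -1.35). Srebf2 gave 188 and 161 UMIs, 23.7 CPM against 9.16 CPM, with -1.37 (-1.69 to -1.06). Raw counts are close for these genes because the IHG library had more neutrophil-like cells, so the difference lies in the level per UMI. Hmgcs1 was at -1.02 (-1.38 to -0.66), and -1.55 with thinned cells. Msmo1 was at -0.91 (-1.16 to -0.67), Stard4 at -1.24 (-1.86 to -0.63) and Idi1 at -0.82 (-1.20 to -0.44).

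Past the set seen in B-like cells, the sterol desaturase Sc5d was at -0.62 (-1.03 to -0.21), the 3-ketosteroid reductase Hsd17b7 at -1.23 (-1.97 to -0.51) and Fdps at -0.53 (-0.77 to -0.29) in neutrophil-like cells. Ebp again went the other way, with 175 and 476 UMIs and 0.29 (0.04 to 0.55), as did Pmvk with 0.28 (0.04 to 0.52), although Pmvk was at -0.39 with thinned cells. Ggps1, Fdft1, Insig2 and Scap had positive ratios from 0.16 to 0.87 with intervals across 0. Cluster by cluster, Srebf2 was at -1.55, -1.11 and -1.25 in neutrophil-like clusters 1, 6 and 8, and Cyp51 at -2.21, -1.71 and -2.61. Ebp was at 0.38, 0.24 and -0.14 in these clusters. The immediate-early list differed less here than in B-like cells, with 4 of 8 genes higher and a median of -0.21, while hepatocyte RNA was again higher in IHG (85.9 CPM and 227.4 CPM) and haemoglobin lower (3.23% and 1.01%). Their part in the result was not tested.

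**Figure D3:**
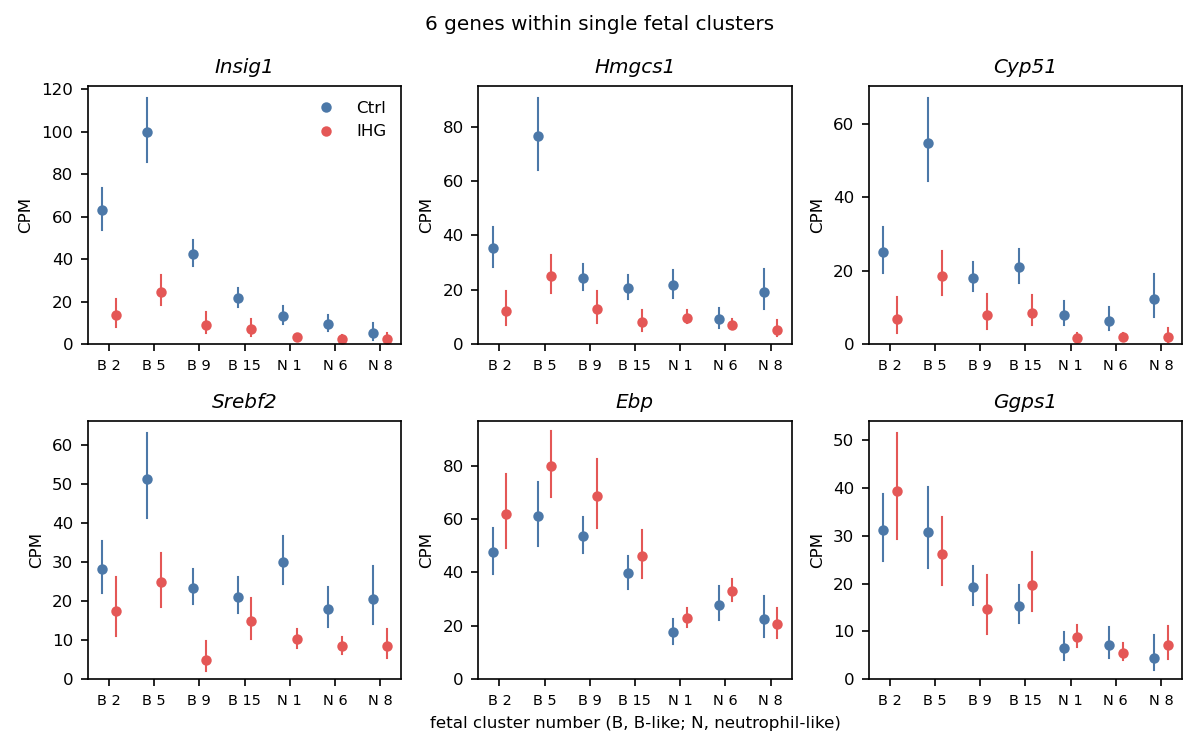
Level in CPM of 6 genes in Ctrl (blue) and IHG (red) cells of single fetal clusters, B-like (B) and neutrophil-like (N), with exact 95% Poisson intervals as bars. Insig1, Hmgcs1, Cyp51 and Srebf2 are lower in IHG in all 7 clusters drawn, whereas Ebp is higher in 6 of the 7 and Ggps1 lies on both sides. The clusters come from the same pair of libraries and are not replicates.

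Mast cell or basophil-like cells (86 Ctrl and 235 IHG) had 9 of 23 measured genes at least 1.5-fold lower, against 12.5% of all genes, and none at least 1.5-fold higher, against 30.4%. Hmgcs1 there gave 80 UMIs in Ctrl and 90 in IHG, 93.0 CPM against 20.8 CPM, a log2 ratio of -2.16 (-2.61 to -1.71). Cyp51 was at -1.59 (-2.07 to -1.09), Msmo1 at -1.38 (-1.90 to -0.83) and Insig1 at -1.07 (-1.67 to -0.40) in the same cells. Immediate-early genes were at 3027 CPM in Ctrl and 1460 CPM in IHG, and haemoglobin at 9.43% and 0.891% of UMIs, and their part in the result was not tested. Without haemoglobin-rich cells the median over the 23 genes went from -0.39 to -0.61, with 3 in place of 7 higher. Monocyte-like cells (209 and 310) had 7 of 22 genes higher, with a median of -0.26 against 0.19 over all genes, and 3 at least 1.5-fold lower, against 7.09%. These were Stard4 at -0.89 (-1.70 to -0.06), Sc5d at -0.75 (-1.53 to 0.06) and Mvd at -0.62 (-1.44 to 0.23). Insig1 was level in monocyte-like cells, with 22.3 CPM in Ctrl and 22.8 CPM in IHG and a log2 ratio of 0.02 (-0.54 to 0.63), and Ebp was lower there, at -0.48 (-0.78 to -0.16). All 8 immediate-early genes had negative ratios in monocyte-like cells too (4097 and 2235 CPM), and haemoglobin was 6.11% and 1.13% of UMIs. Their part was not tested. Fetal stromal cells numbered 34 in Ctrl and 117 in IHG. Of 9 genes measured in them 3 were at least 1.5-fold lower (14.7% of all genes) and 2 at least 1.5-fold higher (27.3%), with a median of -0.41. Endothelial-like cells gave 112217 of the 196171 stromal UMIs in Ctrl and 981886 of 1059259 in IHG, and taken alone they had 6 measured genes with a median of 0.03, so the pooled value moves with the make-up of the pool.

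Myeloid progenitor-like cells (123 and 542) and dendritic-like cells (27 and 49) completed the fetal myeloid classes, with 533 and 149 Ctrl UMIs of the 26 genes. In the progenitor-like cells 5 of 22 measured genes were at least 1.5-fold lower (6.02% of all genes) and 5 at least 1.5-fold higher (37.3%). Insig1 was among the lower ones with 20 and 50 UMIs and -1.11 (-1.87 to -0.27), as were Msmo1 at -1.27 (-2.04 to -0.41) and Srebf2 at -0.79 (-1.45 to -0.04), and Insig2 was among the higher ones with 3 and 60 UMIs and 1.70 (0.29 to 4.22). Cyp51 and Hmgcs1 had intervals across 0 there. In dendritic-like cells 4 of 7 measured genes were at least 1.5-fold lower (10.1% of all 3214 measured genes) and none higher (25%), among them Hmgcs1 with 15 and 16 UMIs and -1.58 (-2.69 to -0.46), Cyp51 with 11 and 10 UMIs and -1.80 (-3.20 to -0.43) and Fdps with 38 and 59 UMIs and -1.04 (-1.65 to -0.41). Immediate-early genes stood at 5721 and 2254 CPM in these cells, and their part was not tested either.

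Fetal erythroid-like cells, 2982 in Ctrl and 2165 in IHG, gave another picture. The median over 25 measured genes was 0.14, the same as over all measured genes, with 16 higher. Only 2 genes were at least 1.5-fold higher, against 13% of all genes, and 2 at least 1.5-fold lower, against 4.68%. Insig2 gave 163 UMIs in Ctrl and 211 in IHG, 3.97 CPM against 6.30 CPM, a log2 ratio of 0.66 (0.36 to 0.97). The squalene route followed, with Fdft1 at 477 and 593 UMIs and 0.61 (0.43 to 0.78), Sqle at 239 and 278 UMIs and 0.51 (0.26 to 0.77), and Cyp51 at 171 and 201 UMIs and 0.53 (0.22 to 0.83). Idi1 gave 741 and 897 UMIs, 18.0 CPM against 26.8 CPM, with 0.57 (0.43 to 0.71), and Fdps 2721 and 2701 UMIs with 0.28 (0.20 to 0.36).

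Of the 7 genes at least 1.5-fold lower in B-like cells, Cyp51, Sqle and Msmo1 (0.27, 0.05 to 0.49) had positive ratios in erythroid-like cells, and the 4 others had intervals across 0. Insig1 had 9.16 CPM in Ctrl and 9.49 CPM in IHG, Srebf2 13.3 and 12.9 CPM, Hmgcs1 5.82 and 5.91 CPM, and Stard4 12.0 and 10.5 CPM. The desaturase Fads2 was lower in IHG, with 94 and 32 UMIs and a log2 ratio of -1.25 (-1.89 to -0.67), and Scap had 37 and 18 UMIs with -0.73 (-1.65 to 0.10).

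The summed level of the 26 genes differed widely between the erythroid-like clusters and was lowest where haemoglobin RNA was highest. Cluster 4, with 85.1% haemoglobin in Ctrl and 83.5% in IHG, had 30.3 CPM (26.3 to 34.8) and 40.0 CPM (35.8 to 44.6). Cluster 0, with 81.3% and 78.9%, had 74.6 and 94.1 CPM. Cluster 3, with 50.7% and 49.1%, had 251 and 314 CPM, and cluster 7, with 45.2% and 38.7%, had 332 and 440 CPM. Cluster 13, with 16.8% and 17.5%, had 488 and 487 CPM. In 4 of these 5 clusters the IHG cells had the higher sum, and in cluster 13 the sums were level. Haemoglobin is part of the total that CPM divides by, and its part in the difference was not tested. The positive ratios depended on how cells were assigned. When each library was clustered by itself, the median over the 25 genes was -0.48 (4 higher), with all measured genes at -0.43, and Idi1 was at -0.21 and Cyp51 at -0.06.

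**Figure D4:**
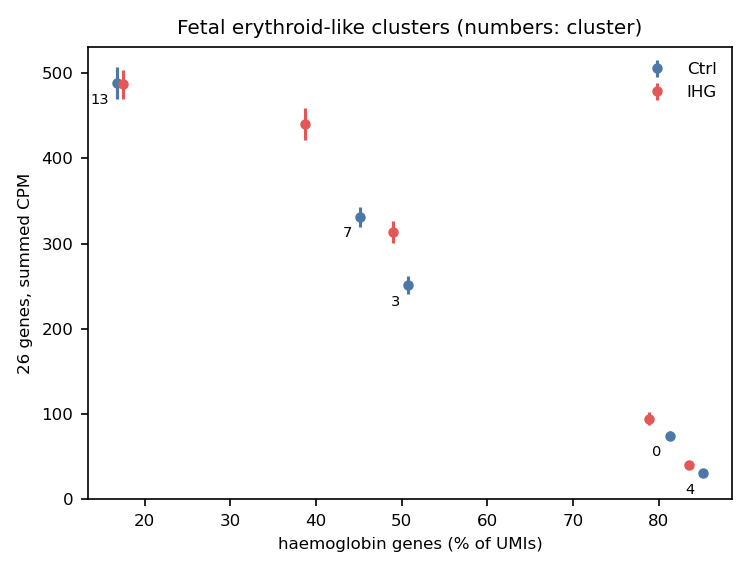
Summed level of the 26 genes (CPM, vertical axis from 0, bars are exact 95% Poisson intervals) against the share of haemoglobin genes in all UMIs (percent, horizontal axis) for the Ctrl (blue) and IHG (red) cells of the 5 fetal erythroid-like clusters. The sum is 488 CPM in Ctrl cluster 13 and 30.3 CPM in Ctrl cluster 4.

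In fetal hepatocyte-like cells the median log2 ratio over 25 measured genes was -0.01 (12 higher), against 0.22 over all genes. At least 1.5-fold higher were 5 genes (25.8% of all genes) and at least 1.5-fold lower 4 (10.9%). The Ctrl cells here carried 14.3% haemoglobin RNA and the IHG cells 1.53%, and proliferation genes summed to 980 CPM in Ctrl and 442 CPM in IHG. Values without haemoglobin-rich cells (89 Ctrl and 101 IHG cells) are therefore given beside the others, and the part of either list in the result was not tested. Without those cells the median was -0.39, with 7 of 25 genes higher, against 0.13 over all genes.

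Dhcr7 and the desaturases Fads1 and Fads2 were lower in the IHG library with or without those cells. Dhcr7, the reductase of the last step to cholesterol, gave 36 UMIs in Ctrl and 20 in IHG, 43.2 CPM against 17.0 CPM, a log2 ratio of -1.33 (-2.21 to -0.52), and -1.73 (-2.62 to -0.90) without haemoglobin-rich cells. Fads1 gave 38 and 25 UMIs with -1.09 (-1.89 to -0.33) and Fads2 45 and 35 UMIs with -0.85 (-1.54 to -0.19), and without those cells they were at -1.52 and -1.18. Hsd17b7 was higher in IHG with an interval off 0 in both readings, with 12 and 42 UMIs, 14.4 CPM against 35.7 CPM and 1.27 (0.36 to 2.37), and 1.03 (0.02 to 2.32) without those cells. The cell with the most held 14.3% of the Hsd17b7 UMIs in IHG.

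Several enzymes that were lower in the IHG library in blood cells were higher in hepatocyte-like cells, but close to level without haemoglobin-rich cells. Hmgcs1 gave 133 and 261 UMIs, 159.5 CPM against 222.1 CPM, a log2 ratio of 0.47 (0.17 to 0.79), and 0.00 (-0.31 to 0.33) without them. Msmo1 was at 0.62 (0.13 to 1.15) and 0.13 without them, Sc5d at 0.54 (0.05 to 1.05) and 0.14, and Idi1 at 0.40 (0.02 to 0.81) and -0.01, all 3 with intervals across 0 in the second reading. Insig1 did not share this direction. It gave 83 and 90 UMIs, 99.5 CPM in Ctrl and 76.6 CPM in IHG, a log2 ratio of -0.38 (-0.83 to 0.07), and -0.82 (-1.29 to -0.35) without haemoglobin-rich cells. Srebf2 had 22.8 and 22.1 CPM. Fdps, with 466 and 669 UMIs, was level at 558.9 CPM against 569.2 CPM and a log2 ratio of 0.03 (-0.15 to 0.20), and was at -0.35 (-0.53 to -0.16) without those cells.

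Neighbouring lipid pathways were read from 6 further lists. In fetal hepatocyte-like cells the list of fatty acid synthesis genes driven by SREBP1 had 8 of 12 genes measured, 5 at least 1.5-fold lower, 1 at least 1.5-fold higher and a median of -0.92 (-1.34 without haemoglobin-rich cells), against 10.9%, 25.8% and a median of 0.22 over all genes. Fasn, the fatty acid synthase, gave 55 and 24 UMIs with -1.68 (-2.45 to -0.98), the stearoyl-CoA desaturase Scd1 55 and 27 UMIs with -1.51 (-2.24 to -0.83), and Acly, which supplies acetyl-CoA, 67 and 50 UMIs with -0.91 (-1.48 to -0.37). All 6 measured genes of 8 of oxysterol and bile acid synthesis had positive ratios (median 0.54 against 0.22 over all genes, and 0.18 without haemoglobin-rich cells). Among them Cyp39a1, an oxysterol hydroxylase, was at 1.49 (0.64 to 2.53) and Cyp7a1, the rate-limiting enzyme of bile acid synthesis, at 0.30 (-0.36 to 0.99).

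For the B-like cells that follow, 16.4% of all genes were at least 1.5-fold higher, 8.01% at least 1.5-fold lower, and the all-gene median was 0.19. In fetal B-like cells the SREBP1 list had 9 of 12 measured with a median of -0.12, of which 1 was at least 1.5-fold lower (Scd2, 901 and 314 UMIs, -0.68, -0.87 to -0.49) and 1 at least 1.5-fold higher (the elongase Elovl6, 0.67, 0.43 to 0.91). All 9 genes of isoprenoid use, the transferases and synthases that spend farnesyl and geranylgeranyl units, had positive ratios in B-like cells with a median of 0.37, 1 of them past 1.5-fold. Of 8 genes of SREBP processing and sterol-regulated degradation 2 were at least 1.5-fold higher and none lower, with a median of 0.17. The lists of LXR targets (5 of 8 measured, median -0.03) and of sterol transport and ester storage (8 of 10 measured, median 0.09) had none past 1.5-fold in either direction. In neutrophil-like cells the medians were -0.37 for the SREBP1 list, 0.30 for isoprenoid use, 0.14 for LXR targets and 0.09 for SREBP processing, against 0.25 over all genes.

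In the adult the cholangiocyte-like cells had 22 measured genes, with 7 at least 1.5-fold lower in IHG (9.66% of all genes), 2 at least 1.5-fold higher (10.7%) and a median of -0.19 against 0.03 over all genes. Idi1 gave 470 UMIs in Ctrl and 91 in IHG, 411 CPM against 233 CPM, a log2 ratio of -0.81 (-1.16 to -0.49). Pmvk gave 104 and 16 UMIs with -1.11 (-2.01 to -0.38), Fdps 296 and 58 with -0.79 (-1.23 to -0.39), Msmo1 346 and 74 with -0.67 (-1.06 to -0.31) and Cyp51 265 and 58 with -0.63 (-1.08 to -0.23). Hmgcs1, with 331 and 84 UMIs, was at -0.42 (-0.79 to -0.08). Srebf2 was level, with 105.7 CPM in Ctrl and 110.1 CPM in IHG. The IHG class had 37 cells, and 1 of them held 12.1% of the Cyp51 UMIs there. When each cell was thinned to 1000 UMIs, Msmo1 was at -0.11, Hmgcs1 at -0.01 and Fdps at -1.75.

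Adult B-like cells, 1857 in Ctrl and 3437 in IHG, showed smaller differences than fetal ones. Of 20 measured genes 3 were at least 1.5-fold lower (6.51% of all genes) and none at least 1.5-fold higher (3.46%), with a median of -0.22 against -0.09. Insig1 gave 159 and 205 UMIs, 37.2 CPM against 28.6 CPM, a log2 ratio of -0.38 (-0.69 to -0.07), and Srebf2 408 and 557 UMIs, 95.4 CPM against 77.7 CPM, with -0.30 (-0.48 to -0.11). Hmgcs1 was at -0.16 and Cyp51 at 0.08, intervals across 0. Scap, which had a positive ratio in fetal B-like cells, was at -0.70 (-1.25 to -0.14) with 56 and 58 UMIs. In adult T-like cells, 1592 and 1642, Cyp51 gave 241 and 134 UMIs with -0.80 (-1.12 to -0.49) and Msmo1 113 and 59 UMIs with -0.89 (-1.37 to -0.43), among 6 of 24 genes at least 1.5-fold lower (5.78% of all genes), with 1 at least 1.5-fold higher (4.5%). Adult stromal cells, 189 and 141, had 6 of 16 at least 1.5-fold lower (13.6%), among them Hmgcs1 with 57 and 22 UMIs and -0.87 (-1.68 to -0.16) and Fads2 with 46 and 16 UMIs and -1.02 (-1.96 to -0.20), and none at least 1.5-fold higher (11.3%). Mesothelial-like cells gave 655294 of the 1130400 stromal UMIs in Ctrl and 292977 of 811133 in IHG, and taken alone had 11 measured genes with a median of 0.08, against -0.48 in the pool. Hmgcs1 and Fads2 were at -0.55 and -0.82 in them, with intervals across 0. In adult NK-like cells (647 and 756) 1 of 13 measured genes was at least 1.5-fold lower (7% of all genes) and none higher (6.84%).

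Adult dendritic-like cells other than the plasmacytoid ones, 239 in Ctrl and 163 in IHG, had more positive than negative ratios. Of 13 measured genes 3 were at least 1.5-fold higher (10.1% of all 5904 measured genes) and 1 at least 1.5-fold lower (9.82%), with a median of 0.35 against 0.03. Idi1 gave 33 and 38 UMIs with a log2 ratio of 0.99 (0.29 to 1.71) and Fdps 98 and 97 UMIs with 0.78 (0.36 to 1.20), while Cyp51 gave 83 and 28 UMIs with -0.76 (-1.45 to -0.14). Insig1 and Srebf2 were at 0.20 and 0.00 with intervals across 0. The few plasmacytoid dendritic-like cells went the other way, with 1 of 5 measured genes higher and 4 lower. Their median was -1.07, against -0.09 over all genes. Srebf2 gave 20 and 4 UMIs there with -1.54 (-3.68 to -0.09), and the other measured genes had intervals across 0.

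Over the whole adult libraries, all 26 genes were lower in IHG, 15 of them at least 1.5-fold (16.8% of all genes, with 3.36% at least 1.5-fold higher), with a median of -0.63 against -0.14 over all genes. Over the whole fetal libraries 20 of 26 were higher, with a median of 0.17 against 0.45. The cholangiocyte-like class, where these genes were highest, was 89 of 5045 cells in Ctrl and 37 of 6500 in IHG, so that whole-library sums mix levels within cells with numbers of cells.

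Age was compared within B-like cells, which differed in stage as well as in age. Proliferation genes summed to 2569 and 2460 CPM in the fetal Ctrl and IHG libraries and to 249.8 and 210.8 CPM in the adult ones, and the adult libraries were shallower, so that age, stage and capture cannot be told apart. The 2 adult over fetal comparisons use separate libraries. In both, Srebf2 was higher in the adult, at 27.3 CPM in the fetus and 95.4 CPM in the adult in Ctrl (log2 ratio 1.80, 1.60 to 2.01) and at 15.97 and 77.7 CPM in IHG (2.28, 1.99 to 2.58).

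The median log2 ratio of adult over fetal B-like cells was -0.60 over the 26 genes in Ctrl, against -0.17 over all genes. In IHG it was -1.03 over 24 measured genes, against -0.41. At least 1.5-fold lower in adult B-like cells were 13 of 26 genes in Ctrl, where 39.9% of all genes were, and 14 of 24 in IHG, where 45.8% were. At least 1.5-fold higher were 1 gene in Ctrl (30.6%) and 4 in IHG (26.4%). Of the 9 enzymes from lanosterol to cholesterol, 4 were higher in Ctrl, with a median of -0.04. Fdps was lower in the adult by a log2 ratio of -2.32 (-2.87 to -1.86) in Ctrl and -2.33 (-2.80 to -1.91) in IHG, Ebp by -2.17 and -2.39, Idi1 by -1.63 and -1.80, Pmvk by -1.45 in both, and Mvk by -2.79 and -3.14. The geranylgeranyl synthase Ggps1 was not lower, at 0.56 in Ctrl and 0.22 in IHG, although it was at -0.19 in Ctrl with thinned cells. Fads1 had 64 UMIs in fetal and 1 in adult Ctrl cells (-3.81, -9.71 to -1.85), and 36 and 1 in IHG (-4.57, -10.48 to -2.57).

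For 3 of the genes that were lower in fetal IHG B-like cells, the age ratio was positive with an interval off 0 in IHG but not in Ctrl. Insig1 was at -0.36 (-0.62 to -0.11) in Ctrl and 1.03 (0.69 to 1.39) in IHG, Hmgcs1 at -0.04 (-0.34 to 0.24) and 0.92 (0.58 to 1.27), and Cyp51 at -0.04 (-0.37 to 0.28) and 1.22 (0.85 to 1.62). These are the same 4 libraries as above, read the other way.

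**Figure D5:**
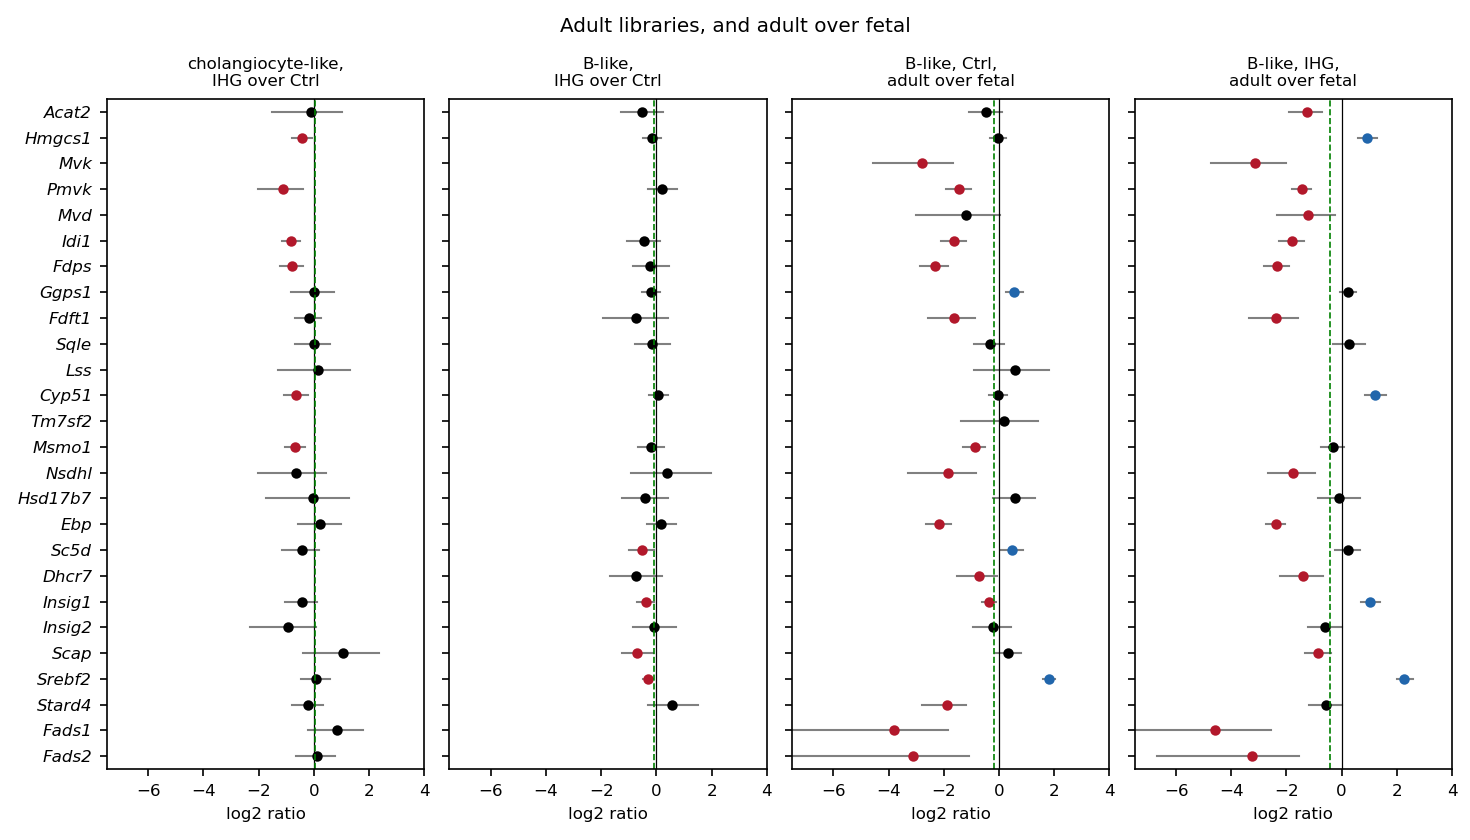
Log2 ratio for each measured gene (rows) of IHG over Ctrl in adult cholangiocyte-like and B-like cells and of adult over fetal in B-like cells of each mother group, with exact 95% counting intervals. Colours and the dashed line mean the same as in the plot of fetal ratios, and Srebf2 is the farthest to the right of the measured genes in both age panels.

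In neutrophil-like cells, where the adult libraries held 197 and 107 cells, Srebf2 was again higher in the adult, as was Sc5d. Sc5d had 11.1 CPM in fetal and 112.7 CPM in adult Ctrl cells (3.35, 2.79 to 3.88) and 7.22 and 47.0 CPM in IHG (2.77, 1.54 to 3.67, from 9 adult UMIs). Srebf2 was at 2.01 (1.45 to 2.51) in Ctrl and 2.58 (1.42 to 3.43) in IHG. By the count minimum, 16 of the 26 genes were measured in Ctrl and 20 in IHG. Their median adult over fetal log2 ratios were 0.17 and 0.52, against 0.64 and 0.46 over all genes. That minimum counts fetal and adult UMIs together, and adult UMIs were few for many of these genes. Fdps, for instance, had 3 UMIs in adult Ctrl and 0 in adult IHG neutrophil-like cells, which held 390514 and 191419 UMIs in all.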

How the data were processed

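Male mouse liver cells were counted in 4 libraries of 1 group each. The deposited files hold raw UMI counts for each gene and barcode, and per the file headers the software was Cell Ranger 5.0.0. Build mm10 is given in the submitters' processing notes, which also list Seurat without saying for which step. Barcodes under about 500 UMIs are not in the files. The members, lists, motifs and clustering rules were chosen with earlier results of these data known.

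Cells under 300 genes or over 25% mitochondrial UMIs were dropped. Scrublet doublets were removed (147, 284 and 150), and in adult IHG, where its threshold marked 0.0884%, under a minimum of 0.5%, those above the 95th percentile (286). This left 7554 and 7908 fetal cells (Ctrl and IHG) and 5045 and 6500 adult cells. Both libraries of 1 age were clustered jointly with no batch correction (log counts per 10000, 2000 variable genes without the members unless markers, 30 components, 15 neighbours, Leiden resolution 1.0; scanpy 1.11.5, leidenalg 0.10.2, Python 3.11.15). Clusters took a name from 19 marker lists, needing 3 detected markers, and stayed unnamed where another class had more markers among the 10 leading genes; such clusters were first split at resolution 0.5, a step added after the clusters had been seen. UMIs were summed per class and library. Ratios carry exact conditional Poisson 95% intervals, and CPM exact Poisson ones. PCR error, and differences between cells, animals and captures, are not in them. Alternatives were other scalings, other count minimums, other mitochondrial and resolution settings, doublets kept, haemoglobin-rich cells left out, cells thinned to 1000 UMIs each, and each library clustered by itself. Values of single clusters were added after the data had been seen. The ratio and interval steps were tested on simulated data. Every member with at least 20 UMIs over the compared libraries could be named, and of other lists up to 4 genes that also reached 20 CPM. Reads shared with near-identical copies (pseudogenes of Fdps, Idi1 or Cyp51) cannot be assigned from these counts. Gene positions are from GENCODE M21.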

Additional observations from a re-analysis of the deposited data

Results flagged for a closer look

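The following genes had IHG over Ctrl ratios on opposite sides of 0, with both counting intervals off 0, in 2 fetal classes or at 2 ages. With 1 library per group the difference itself was not tested. Each value is the log2 ratio in the class named first minus that in the class named second.

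In fetal erythroid-like against B-like cells the differences were 1.71 for Cyp51, 1.25 for Sqle, 1.04 for Msmo1, 0.86 for Idi1, 0.50 for Fdps and -0.57 for Ebp. In fetal erythroid-like against neutrophil-like cells they were 2.69 for Cyp51, 1.39 for Idi1, 1.18 for Msmo1, 0.81 for Fdps and -0.48 for Ebp. Against monocyte-like cells Fdps differed by 0.66 in erythroid-like cells. In fetal hepatocyte-like against B-like cells the differences were 1.59 for Hmgcs1, 1.39 for Msmo1 and 0.70 for Idi1. In fetal hepatocyte-like against neutrophil-like cells they were 2.50 for Hsd17b7, 1.54 for Msmo1, 1.497 for Hmgcs1, 1.23 for Idi1 and 1.16 for Sc5d. Ebp differed by 0.86 between fetal B-like and monocyte-like cells and by 0.77 between fetal neutrophil-like and monocyte-like cells. Scap differed by 1.18 between fetal and adult B-like cells.

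Some of these calls end under an alternative. In hepatocyte-like cells without haemoglobin-rich cells, Hmgcs1 was at 0.00, Msmo1 at 0.13, Sc5d at 0.14 and Idi1 at -0.01, all with intervals across 0. In erythroid-like cells, with each library clustered by itself, Cyp51, Idi1, Fdps and Msmo1 had negative ratios. Of the B-like and neutrophil-like values, Fdps in B-like cells was positive with thinned cells.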

How the results depend on the processing

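The median over the measured members was recomputed for 13 comparisons under 96 alternatives, and 95 lay between the medians of the members' lower and upper interval bounds, wide limits for so few counts. The exception was fetal erythroid-like cells with each library clustered by itself, at -0.48. Of 97 single gene values with an interval off 0, 539 of 552 alternatives kept the direction. Only 492 of the 552 lay within the counting interval of the value, so these intervals do not cover the dependence on processing. The 13 alternatives with the opposite direction were as follows. With each library clustered by itself, fetal erythroid-like Acat2 was at -0.66, Idi1 at -0.21, Fdps at -0.20, Cyp51 at -0.056 and Msmo1 at -0.11. Acat2 was also at -0.13 with the 10% mitochondrial maximum and -0.18 at resolution 0.5. With thinned cells, fetal B-like Fdps was at 0.056, erythroid-like Ggps1 at -0.053 and Msmo1 at -0.0061, neutrophil-like Pmvk at -0.39, and Ggps1 in Ctrl adult over fetal B-like cells at -0.19. Without haemoglobin-rich cells, hepatocyte-like Idi1 was at -0.0085. In fetal B-like cells Insig1 ranged from -1.96 to -1.71 and Cyp51 from -1.38 to -1.09. No paired analysis was possible because each group has 1 library. Counts limit small classes, with 7 members measured in fetal dendritic-like, 9 in fetal stromal, 4 in adult monocyte-like and 3 in adult neutrophil-like cells.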

Other observations

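Several cell groups outside the comparisons also carried these genes. An unnamed fetal cluster of deep cells (131 in Ctrl and 496 in IHG, median 32515 and 35777 UMIs), led by C1qtnf12, Gm15915 and Prelid2 with Car1 and Hspd1 among its leading genes, had 598 CPM of the 26 genes in Ctrl and 559 CPM in IHG. In it Hmgcs1 was at a log2 ratio of -1.02, Msmo1 at -0.81 and Srebf2 at -0.53, while Idi1 was at 1.11. Fetal macrophage-like cells numbered 6 in Ctrl and 347 in IHG, and had 396 CPM in IHG.

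An unnamed adult cluster led by Msmp, Ttr, Ahsg and Alb, with 81 Ctrl and 46 IHG cells, had 1774 CPM and 1506 CPM. It held hepatocyte and bile duct markers together, and the source of its hepatocyte RNA was not tested.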
